A study of Mus musculus with 11 samples.

Results

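The p53 response and the inhibitors of the cell cycle were followed through 10 genes in lung fibroblasts with and without cGAS, the enzyme that senses DNA in the cytosol. These genes are Trp53, Mdm2, Cdkn1a, Cdkn2a, Cdkn2b, Ccng1, Sesn1, Aen, Bbc3 and Bax, chosen by name and found by gene symbol, and all were among the 58223 entries of the count tables and the 22298 that passed a low-count filter in the comparison over both sexes. Across both sexes none of the 10 differed between knockout and wild-type cells past the threshold. The widest differences were a higher level of Sesn1 and a lower level of Aen in knockout cells, and the pair of wild-type females did not resemble each other for several of the genes.

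The transcription factor p53 is made all the time in most cells and is kept scarce by Mdm2, an E3 ubiquitin ligase that p53 itself induces. When DNA is damaged or the cell is stressed p53 accumulates and switches on genes of growth arrest, such as Cdkn1a, which encodes the CDK inhibitor p21, and genes of cell death, such as Bax and Bbc3, which encodes PUMA. Cdkn2a and Cdkn2b lie beside each other in the genome and encode the CDK inhibitors p16INK4a and p15INK4b. Cdkn2a also encodes p19ARF, which is no CDK inhibitor but holds back Mdm2. In cultured fibroblasts these inhibitors are widely used as marks of senescence, a lasting arrest of growth.

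The RNA came from primary fibroblasts of the lungs of single mice, 6 of them cGAS KO (3 females, 3 males) and 5 WT (2 females, 3 males), with no treatment named in the labels. All groups were cultured alike, in DMEM/F12 with serum and under lowered oxygen, and ribosomal RNA was depleted. The labels name no allele, age, passage number or littermate relation. The extraction text of the labels speaks of tissue where the other labels speak of cultured cells.

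Total counts ran from 27261958 to 48039328 per library, so that a count of 0 allows a level of up to 0.061 to 0.112 CPM (counts scaled to an equal library size; 3 counts, counting error only). Cgas, the targeted gene, was at 1.61 to 2.26 CPM in the KO libraries and 5.87 to 9.98 CPM in the WT libraries, and its fall of 1.99 on the log2 scale passed the test (SE 0.16, edgeR adjusted p = 0.00102). All 12 fibroblast markers were read in every library, at a summed 37574 to 51619 CPM in KO and 40646 to 55327 CPM in WT. Leukocyte and macrophage markers were read too, with 14 of 18 past the filter and a summed 8935 to 14811 CPM in KO against 6143 to 9251 CPM in WT, while Cd3e, Ly6g and Mpo, which define T cells and granulocytes, were among those that did not pass it. Pericyte and smooth muscle markers summed to 1305 to 3670 CPM in KO and 2214 to 4773 CPM in WT (10 of 10 past the filter), endothelial markers to 55.4 to 105 and 40.3 to 88.5 CPM (8 of 8), epithelial markers to 11.7 to 37.6 and 22.9 to 56.9 CPM (8 of 12), and mesothelial markers to 10.7 to 104 and 20.2 to 144 CPM (5 of 6). In bulk RNA more cells of a type and more RNA per cell cannot be told apart. The library WT female 2 stood apart: its proliferation genes summed to 469 CPM, against 885 to 2048 CPM in the other 10 libraries, and results of the 10 genes that rest on it are given with and without it.

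Cdkn1a and Ccng1 were the members with a p53 response element in the promoter window, and these elements are shown because p53 induces both genes directly. The window ran from 250 bases before to 50 bases after each start site in RefSeq (GRCm38.p6). The search was for the p53 response element, 2 half-sites of 10 bases with no spacer between them, on both strands, with up to 2 mismatches and with the C and G of each half-site's core (CNNG) kept. The 30 bases below, in the direction of the gene, hold the element in capitals.
Cdkn1a, chr17:29090923-29090952, + strand: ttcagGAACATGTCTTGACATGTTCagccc
Ccng1, chr11:40755457-40755486, - strand: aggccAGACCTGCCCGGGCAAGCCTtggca
The Cdkn1a element lay 51 to 32 bases before a start site and the Ccng1 element 195 to 176 bases before one, each with 1 mismatch. Cdkn1a had 2 promoter windows, of which 1 held the match, and Ccng1 had 1. Such a match was found in 107 of 32851 promoter windows (0.326%), and with at most 1 mismatch in 22 (0.067%). For the other 8 members no match means only that these letters are not in these windows. Known p53 elements of several of these genes, such as those in the first intron of Mdm2, lie outside them, and the counts carry no measure of p53 binding.

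Levels differed widely between the 10 genes. Per kilobase of exon (GENCODE vM21 exons, since the annotation used for counting is not given in the sources used here), Ccng1 and Cdkn1a were the most abundant, at a median of 58.0 and 52.4 CPM per kb over the 11 libraries. Their ranges overlapped, from 47.97 to 73.4 and from 45.4 to 80.8 CPM per kb. Bax followed at 28.2 CPM per kb (21.96 to 36.2), clear of both. Trp53 was at 15.9, Mdm2 at 12.3, Cdkn2b at 10.7, Cdkn2a at 9.91, Sesn1 at 9.11, Bbc3 at 7.12 and Aen at 4.98 CPM per kb. The ranges of neighbours in this order, from Trp53 (8.84 to 20.7) down to Bbc3 (6.52 to 10.8) and Aen (3.40 to 7.62), all overlapped. Part of the exons of Cdkn1a (7.68%) overlaps a gene on the other strand and part of those of Bax (12.2%) a gene on the same strand, so reads there could belong to either gene.

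**Figure D1:**
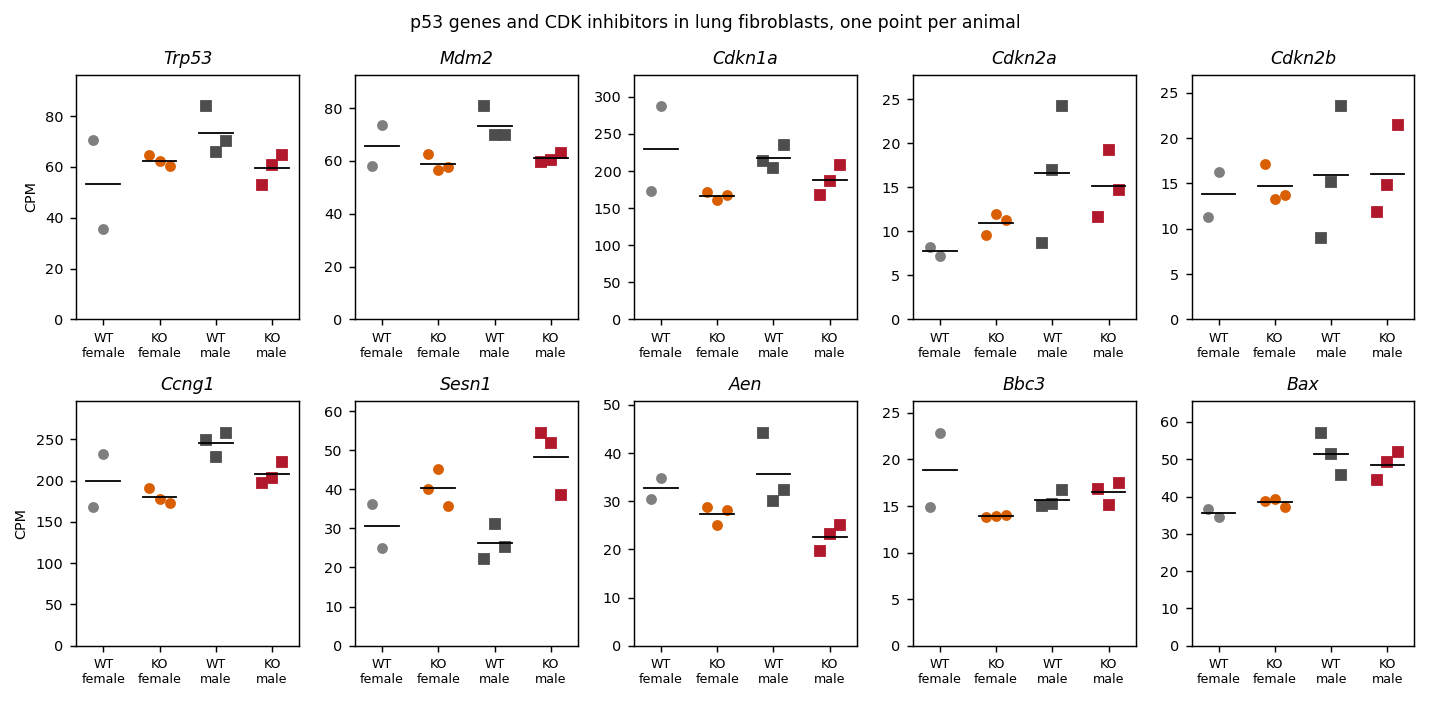
Level of each of the 10 genes in CPM (vertical axes, each starting at 0) in every library, with circles for females, squares for males and a bar at the mean of each group. KO libraries of Sesn1 reach 54.5 CPM and those of Aen stay at or below 28.9 CPM, and the 2 WT female points are far apart for Trp53, Cdkn1a and Bbc3.

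The first question was whether loss of cGAS changed p53 itself or its control by Mdm2. Trp53 was read at 64.9, 62.3 and 60.3 CPM in KO females, 52.9, 60.9 and 64.5 CPM in KO males, 70.4 and 35.7 CPM in WT females and 83.8, 65.9 and 70.3 CPM in WT males. WT female 2 was the lowest of all 11 libraries and WT male 1 the highest, and the KO libraries lay between them. The difference over both sexes was a log2 of -0.07 (SE 0.17, edgeR adjusted p = 0.867), and it became -0.28 without WT female 2 (edgeR adjusted p = 0.188).

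Mdm2 was read at 62.7, 56.4 and 57.6 CPM in KO females, 59.6, 60.5 and 63.1 CPM in KO males, 58.2 and 73.5 CPM in WT females and 80.6, 69.8 and 69.7 CPM in WT males. All KO libraries were below all WT libraries apart from WT female 1, which was among the KO values. Its difference of -0.22 did not pass (SE 0.08, edgeR adjusted p = 0.207).

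The growth-arrest targets of p53 came next. Cdkn1a was read at 171, 161 and 168 CPM in KO females, 168, 186 and 208 CPM in KO males, 173 and 287 CPM in WT females and 214, 205 and 235 CPM in WT males. WT female 2 was by far the highest library, and the groups overlapped through WT female 1 and WT male 2. The mean was 177 ± 17.4 CPM (SD, n = 6) in KO and 223 ± 42.5 CPM (SD, n = 5) in WT libraries, a log2 difference of -0.33 (SE 0.12, edgeR adjusted p = 0.221) that shrank to -0.18 without WT female 2 (edgeR adjusted p = 0.235).

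Ccng1 encodes cyclin G1, which recruits a phosphatase to Mdm2. It was read at 191, 178 and 173 CPM in KO females, 197, 204 and 222 CPM in KO males, 168 and 232 CPM in WT females and 249, 229 and 258 CPM in WT males. WT female 1 was the lowest of all libraries, while the other 4 WT libraries were above every KO library. The difference was -0.20 (SE 0.09, edgeR adjusted p = 0.276).

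Sesn1 encodes sestrin 1, an inhibitor of mTORC1 signalling that p53 induces. It was read at 40.1, 45.2 and 35.8 CPM in KO females, 54.5, 51.9 and 38.5 CPM in KO males, 36.3 and 25.0 CPM in WT females and 22.1, 31.2 and 25.4 CPM in WT males. KO male 1 and KO male 2 were the highest libraries, and the groups overlapped only because WT female 1 was above KO female 3. The mean was 44.3 ± 7.56 CPM (SD, n = 6) in KO and 28.0 ± 5.70 CPM (SD, n = 5) in WT libraries, 1.59-fold, with a log2 difference of 0.67 (SE 0.15, edgeR adjusted p = 0.179).

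The level of Sesn1 moved with the leukocyte and macrophage markers. KO male 1 and KO male 2, the highest in Sesn1, had the highest marker sums (14811 and 13188 CPM), and WT male 1, WT female 2 and WT male 3, the lowest in Sesn1, had the lowest (6498, 6481 and 6143 CPM). KO female 1 and WT female 1 had nearly equal marker sums (9262 and 9251 CPM), with Sesn1 at 40.1 and 36.3 CPM. The part of these markers in the Sesn1 difference was not tested.

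**Figure D2:**
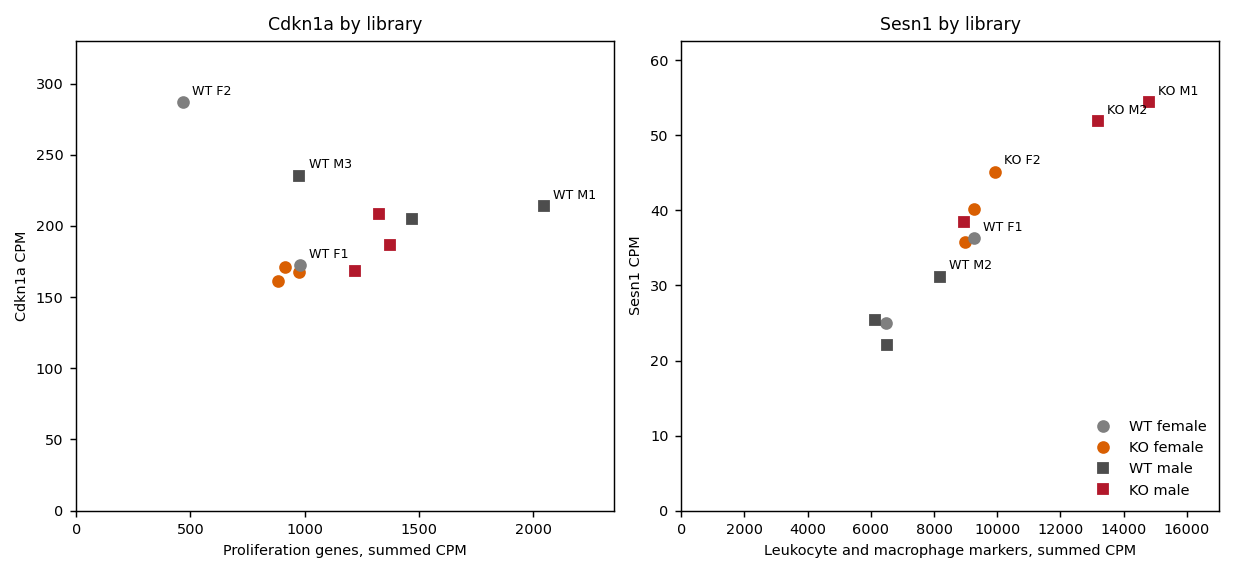
Left, Cdkn1a in CPM against the summed CPM of the 24 proliferation genes in each library. Right, Sesn1 in CPM against the summed CPM of the 18 leukocyte and macrophage markers, with F and M for females and males. WT F2 has the lowest proliferation sum and the highest Cdkn1a, and KO M1 and KO M2 are highest on both axes of the right panel.

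Among the death-related targets Aen, which encodes a nuclease that p53 induces in apoptosis, was read at 28.9, 25.1 and 28.2 CPM in KO females, 19.7, 23.2 and 25.0 CPM in KO males, 30.4 and 34.9 CPM in WT females and 44.2, 30.1 and 32.4 CPM in WT males. All 6 KO libraries were lower than all 5 WT libraries, with WT male 1 the highest. The mean was 25.0 ± 3.37 CPM (SD, n = 6) in KO and 34.4 ± 5.81 CPM (SD, n = 5) in WT libraries, and the log2 difference of -0.48 did not pass (SE 0.12, edgeR adjusted p = 0.179). It was as large without WT female 2 (-0.51, edgeR adjusted p = 0.188).

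Bbc3, a BH3-only activator of cell death, was read at 13.8, 13.9 and 14.0 CPM in KO females, 16.9, 15.1 and 17.4 CPM in KO males, 14.9 and 22.9 CPM in WT females and 15.0, 15.3 and 16.7 CPM in WT males. Apart from WT female 2 the libraries lay close together, and the KO females were the lowest. Its difference of -0.16 (SE 0.13, edgeR adjusted p = 0.537) went to -0.004 without WT female 2.

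Bax, the pore former of the outer mitochondrial membrane, was read at 38.8, 39.4 and 37.2 CPM in KO females, 44.4, 49.3 and 52.0 CPM in KO males, 36.8 and 34.6 CPM in WT females and 57.1, 51.3 and 45.9 CPM in WT males. Here the libraries parted by sex and not by genotype. The genotype difference was 0.001 (SE 0.08, edgeR adjusted p = 0.996), and its sign turned under several of the settings tried.

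The inhibitors of the Cdkn2a and Cdkn2b locus varied widely from library to library, as did Sesn1. Cdkn2a was read at 9.59, 12.0 and 11.3 CPM in KO females, 11.6, 19.2 and 14.7 CPM in KO males, 8.28 and 7.16 CPM in WT females and 8.66, 16.9 and 24.2 CPM in WT males. The WT libraries held both the lowest value, in WT female 2, and the highest, in WT male 3. The means were 13.1 ± 3.44 CPM (SD, n = 6) and 13.0 ± 7.35 CPM (SD, n = 5), with a log2 difference of 0.14 (SE 0.24, edgeR adjusted p = 0.795). One count per gene cannot separate the p16INK4a and p19ARF transcripts.

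Cdkn2b was read at 17.1, 13.3 and 13.7 CPM in KO females, 11.8, 14.8 and 21.5 CPM in KO males, 11.3 and 16.3 CPM in WT females and 8.98, 15.2 and 23.5 CPM in WT males. High and low libraries stood in both genotypes. The difference was 0.05 (SE 0.23, edgeR adjusted p = 0.934). Mtap, the neighbouring gene for methylthioadenosine phosphorylase, was at 41.9 ± 4.76 CPM (SD, n = 6) in KO and 48.5 ± 11.4 CPM (SD, n = 5) in WT libraries, a difference of -0.19 (SE 0.15, edgeR adjusted p = 0.533).

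Counted together over both sexes, none of the 10 genes passed the edgeR test, which called 1 of 22298 entries (0.00448%), namely Cgas. At an unadjusted p under 0.05 there were 5 of the 10, Sesn1 on the higher side and Mdm2, Cdkn1a, Ccng1 and Aen on the lower side. Of all entries 17.2% were past that mark, 10.1% higher and 7.09% lower. DESeq2 called 2 of the 10, Sesn1 and Aen (DESeq2 adjusted p = 0.0143 and 0.0279), among 546 entries in all, and limma-voom, with weights for sample quality, called these and Mdm2 among 3259 entries. Aen was the 1 gene whose KO and WT libraries did not overlap, as held for 1.22% of entries. The median log2 difference of the 10 was -0.11, beside -0.02 for all entries, and 6 of the 10 were below 0, beside 52.5% of entries.

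Without WT female 1, which leaves WT female 2 as the single WT female, Sesn1, Aen, Mdm2 and Ccng1 passed over both sexes (edgeR adjusted p = 0.0225, 0.0354, 0.0412 and 0.0468), with 1678 entries called. Without WT female 2 none of the 10 passed.

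The study holds both sexes, so the KO difference was also taken within each. In males 1 of the 10 genes was called, among 459 of 22960 entries (2.00%, of which 1.30% higher). It was Sesn1, at 48.3 ± 8.58 CPM in KO males (SD, n = 3) and 26.2 ± 4.61 CPM in WT males (SD, n = 3), with a log2 difference of 0.88 (SE 0.19, edgeR adjusted p = 0.0475). This call sits at the edge of the threshold. It was lost when the scaling factors were computed before the low-count filter (edgeR adjusted p = 0.05005), an order that the test as planned did not fix and that was changed after both values had been seen. It was also lost with DESeq2's size factors in edgeR (0.0511) and on leaving out any of 7 libraries, namely WT male 1, WT male 3, KO male 1, KO male 2 or a KO female (edgeR adjusted p from 0.0618 to 0.216). The difference itself stayed between 0.76 and 0.88 when those libraries were left out.

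Aen was at 22.6 ± 2.68 CPM in KO males (SD, n = 3) and 35.6 ± 7.58 CPM in WT males (SD, n = 3). Its difference of -0.65 missed the threshold (SE 0.15, edgeR adjusted p = 0.0533), and passed with DESeq2 and limma-voom (adjusted p = 0.00346 and 0.0143), without the low-count filter (edgeR adjusted p = 0.0260) and without KO male 3, WT female 1, WT female 2 or WT male 2 (edgeR adjusted p from 0.0345 to 0.0463). The other 11 of 18 alternatives left Aen in males uncalled, with an edgeR adjusted p of up to 0.223. Its difference ran from -0.76 to -0.47 without 1 library at a time. Among males the KO and WT libraries of 5 of the 10 genes did not overlap, beside 30.9% of entries. Sesn1 was above WT in all KO males (17.6% of entries), and Trp53, Mdm2, Ccng1 and Aen were below (13.3% of entries). Several cell type marker lists moved with these male differences. Pericyte and smooth muscle markers summed to 1305, 1751 and 2101 CPM in KO males and 4172, 2618 and 4773 CPM in WT males, with a median log2 difference of -1.32 and 3 of 10 called lower (0.697% of entries were). Epithelial markers summed to 11.7 to 14.4 CPM in KO males and 22.9 to 56.9 CPM in WT males, with a median of -1.31 over the 9 of 12 past the filter. Leukocyte and macrophage markers summed to 14811, 13188 and 8935 CPM in KO males and 6498, 8202 and 6143 CPM in WT males. Their median was 0.83 over the 14 of 18 past the filter, with 4 called higher (1.30% of entries were). None of these sums overlapped between the genotypes in males, and the part of these markers in the male differences was not tested. The differences of Trp53, Mdm2 and Ccng1 in males were -0.30 (SE 0.20), -0.26 (SE 0.10) and -0.24 (SE 0.12), none past the test (edgeR adjusted p = 0.415, 0.168 and 0.262).

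In females none of the 10 was called, and 1 of 22960 entries was (0.00436%), again Cgas. Unadjusted p was under 0.05 for 2 of the 10, both lower, beside 6.66% of entries (4.70% on the lower side). These were Cdkn1a at -0.46 (SE 0.18) and Bbc3 at -0.44 (SE 0.16), each with an edgeR adjusted p of 0.692. DESeq2 and limma-voom called none of the 10 in females. The libraries of 5 of the 10 did not overlap, beside 19.0% of entries: Cdkn2a and Bax were higher in all KO females (9.27% of entries), and Cdkn1a, Aen and Bbc3 lower (9.73%).

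These female values turn on which WT female is the reference. Against WT female 2 alone Trp53 was at 0.82, Cdkn1a at -0.77 and Bbc3 at -0.70. Against WT female 1 alone the same genes were at -0.17, -0.05 and -0.10. Either fit leaves 1 WT female, with the lone library assumed to vary like the other groups, so only the differences are given. Mdm2 and Ccng1 went from -0.30 and -0.34 against WT female 2 to 0.01 and 0.10 against WT female 1. In WT female 2 the proliferation gene Mki67 was at 78.9 CPM, the lowest library, beside 155 CPM in WT female 1. The stress-induced gene Gdf15 reached 131 CPM there, the highest of all 11 libraries. The part of that library's state in these differences was not tested.

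**Figure D3:**
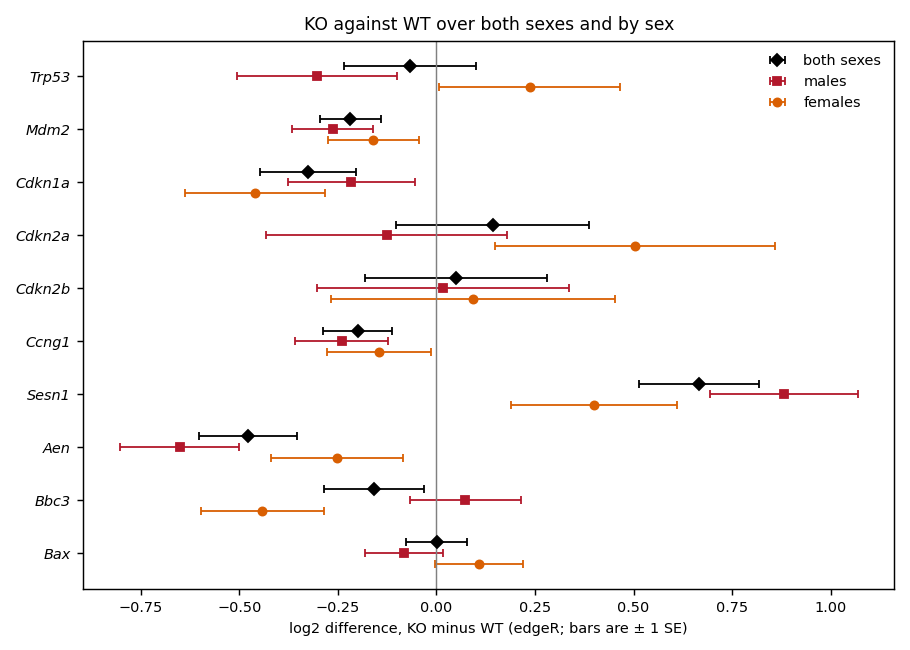
Log2 difference of each gene between KO and WT (horizontal axis, edgeR) over both sexes, in males and in females, with bars of 1 SE on each side. Sesn1 lies to the right of 0 in all 3 comparisons and Aen to the left, while Trp53, Cdkn2a, Bbc3 and Bax have opposite signs in males and females.

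**Figure D4:**
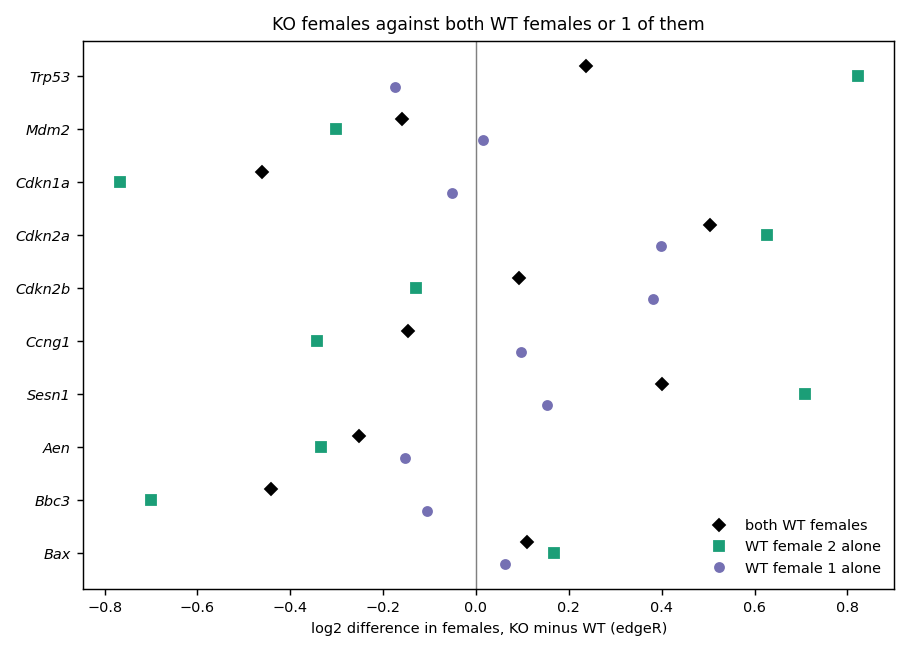
Log2 difference of each gene between KO and WT females (horizontal axis, edgeR) with both WT females, with WT female 2 alone and with WT female 1 alone. Trp53 runs from -0.17 to 0.82 and Cdkn1a from -0.77 to -0.05, depending on the WT female used.

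The difference between the sexes in the KO effect was tested as an interaction. No entry passed it with edgeR, and 1 of the 10 genes was under an unadjusted p of 0.05, beside 13.1% of entries. That gene was Bbc3, with an interaction of 0.52 (SE 0.21, edgeR adjusted p = 0.344). For Sesn1 the interaction was 0.48 (SE 0.28, edgeR adjusted p = 0.477) and for Aen -0.40 (SE 0.23, edgeR adjusted p = 0.470), so a larger difference in males than in females was not shown for either gene. DESeq2 called 227 entries and limma-voom none, and neither called any of the 10.

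Males and females were also set against each other with genotype in the model. Bax was higher in males, 1.34-fold, with a log2 difference of 0.42 (SE 0.08, edgeR adjusted p = 0.0240), and all male libraries were above all female libraries. It was 1 of 956 entries called (4.29%, of which 1.83% higher in males), and males and females did not overlap for 5.09% of entries. The call was lost without WT male 2, KO male 2, KO male 3 or KO female 3 (edgeR adjusted p from 0.0597 to 0.0705). Cdkn2a at 0.75 (SE 0.25, edgeR adjusted p = 0.0893) and Ccng1 at 0.24 (SE 0.09, edgeR adjusted p = 0.112) were higher in males without passing with edgeR, so that 3 of the 10 were under an unadjusted p of 0.05, beside 27.1% of entries. Cdkn2a passed with DESeq2 (adjusted p = 0.0276), which called 2845 of 22298 entries. With limma-voom, which called 5971 of 22298 entries, Cdkn2a and Ccng1 passed (adjusted p = 0.0297 and 0.0166). Proliferation genes moved with sex as well, with all 24 higher in males by a median of 0.67, and their part in the Bax difference was not tested. Library names also differ in style between the sexes, so sex and a difference in preparation cannot be told apart.

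Genes that control p53 gave a balanced picture. Of 18 such genes 16 passed the filter over both sexes, 8 above and 8 below 0, with a median of 0.01. None was called, and 3 were higher at an unadjusted p under 0.05 (10.1% of entries): Chek2, a checkpoint kinase that phosphorylates p53, at 0.25 (SE 0.09), Trp53inp2 at 0.21 (SE 0.08) and the acetyltransferase gene Ep300 at 0.14 (SE 0.06). Mdm4, the partner of Mdm2 in restraining p53, was at 38.3 ± 2.75 CPM (SD, n = 6) in KO and 43.7 ± 9.99 CPM (SD, n = 5) in WT libraries. The WT mean of Mdm4 rests on WT female 2 at 61.3 CPM, with the other WT libraries at 36.9 to 41.9 CPM, and its log2 difference went from -0.21 to -0.088 without that library.

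Other p53 targets of arrest and repair were mostly below 0, 12 of the 18 past the filter out of 19 (52.5% of entries were), with a median of -0.15. None was called over both sexes, and at an unadjusted p under 0.05 there were 5 lower and 1 higher, beside 7.09% and 10.1% of entries. The higher one was Ddb2, a damage-recognition subunit of nucleotide excision repair, at 0.54 (SE 0.15, edgeR adjusted p = 0.179), with 14.9 ± 2.54 CPM (SD, n = 6) in KO and 10.3 ± 2.18 CPM (SD, n = 5) in WT libraries. Among the lower ones were Plk3 at -0.36 (SE 0.12) and Gadd45g at -0.58 (SE 0.20), which went to -0.35 without WT female 2. Gadd45a was level between genotypes at 14.8 ± 2.07 CPM in KO and 14.7 ± 5.57 CPM in WT (SD, n = 6 and 5). In males Btg2, an antiproliferative gene, was at -0.56 (SE 0.14, edgeR adjusted p = 0.0637).

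Of 22 p53 targets of apoptosis and metabolism, all past the filter, 14 were below 0 (52.5% of entries) and the median was -0.10. At an unadjusted p under 0.05 there were 4 higher and 3 lower, beside 10.1% and 7.09% of entries. Gls2, a mitochondrial glutaminase, was at -0.56 (SE 0.16), Dcxr, a dicarbonyl and xylulose reductase, at 0.46 (SE 0.15), and Apaf1, the scaffold of the apoptosome, at 0.23 (SE 0.08). In males Dcxr was the 1 gene of this list called, at 0.75 (SE 0.16, edgeR adjusted p = 0.0475). Pmaip1, which encodes the BH3-only protein NOXA, was at 5.08 ± 0.78 CPM (SD, n = 6) in KO and 6.91 ± 3.40 CPM (SD, n = 5) in WT libraries. WT female 2 was at 12.7 CPM and the other WT libraries at 3.77 to 6.19 CPM. Its log2 difference of -0.47 went to -0.12 without WT female 2, and passed at -0.67 without WT female 1 (edgeR adjusted p = 0.0353).

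The BCL2 family, which sets the threshold for Bax, leaned the other way. Of 14 genes 13 passed the filter, 10 of them above and 3 below 0 (52.5% of entries were below), with a median of 0.24 and 5 higher at an unadjusted p under 0.05 (10.1% of entries). Bcl2l1, which encodes the survival protein BCL-XL, was at 0.27 (SE 0.07, edgeR adjusted p = 0.179), Bcl2a1b, a survival gene of leukocytes, at 0.50 (SE 0.17), and Bad, a BH3-only gene, at 0.23 (SE 0.09). In males Mcl1, another survival gene, passed at 0.67 (SE 0.14, edgeR adjusted p = 0.0475). The summed level of this list was highest in KO male 1 and KO male 2 (953 and 934 CPM, beside 619 to 770 CPM in the other 9 libraries), the libraries with the highest leukocyte and macrophage marker sums, and the part of those markers was not tested.

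The other genes named as CDK inhibitors, Cdkn3 among them, were all above 0 over both sexes, 5 of 5 with a median of 0.17. Of all entries 52.5% were below 0. None of the 5 had an unadjusted p under 0.05. Cdkn2d was at 0.23 (SE 0.11), Cdkn2c at 0.17 (SE 0.13) and Cdkn1b, the p27 gene, at 0.09 (SE 0.09). Cdkn1c, the p57 gene, was at 1.21 in males (SE 0.53, edgeR adjusted p = 0.216) and -0.99 in females (SE 0.58, edgeR adjusted p = 0.692). These went to 0.78 without KO male 3 and to 0.20 without WT female 2. The 14 G1 cyclins, CDKs, E2F and RB family genes had a median of 0.07, with E2f1 at 0.25 (SE 0.11) the 1 with an unadjusted p under 0.05.

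Of 19 regulators of the Cdkn2a and Cdkn2b locus 15 were below 0 (52.5% of entries), with a median of -0.09 and none under an unadjusted p of 0.05. Id1, which antagonises the activation of Cdkn2a, was at -1.50 in males (SE 0.37, edgeR adjusted p = 0.0581), and at -0.82 without WT male 1. Ets1, an activator, was at -0.46 (SE 0.12, edgeR adjusted p = 0.0667).

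Senescence-associated genes did not move in 1 direction: 11 of 18 were above 0, with a median of 0.07. Tgfb1 was at 0.34 (SE 0.12) and passed in males at 0.58 (SE 0.12, edgeR adjusted p = 0.0478). The male calls of Tgfb1, Dcxr and Mcl1 were as close to the threshold as that of Sesn1: they were lost with TMM factors from before the filter (edgeR adjusted p = 0.0511, 0.050004 and 0.050004) and without each of the same 7 libraries (edgeR adjusted p from 0.0593 to 0.221). Lmnb1, the lamin B1 gene, whose loss is a mark of senescence, was at 48.9 ± 7.10 CPM (SD, n = 6) in KO and 53.6 ± 26.6 CPM (SD, n = 5) in WT libraries, and Mki67 at 203 ± 56.0 against 214 ± 116 CPM. Of the 24 proliferation genes 23 were below 0 in males and all 24 above 0 in females, with none called in either sex or for the interaction. The female direction rests on WT female 2, at a summed 469 CPM. WT female 1 was at 979 CPM and the KO females were at 913, 885 and 975 CPM. In males WT male 3, at 977 CPM, was below every KO male (1219 to 1371 CPM).

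**Figure D5:**
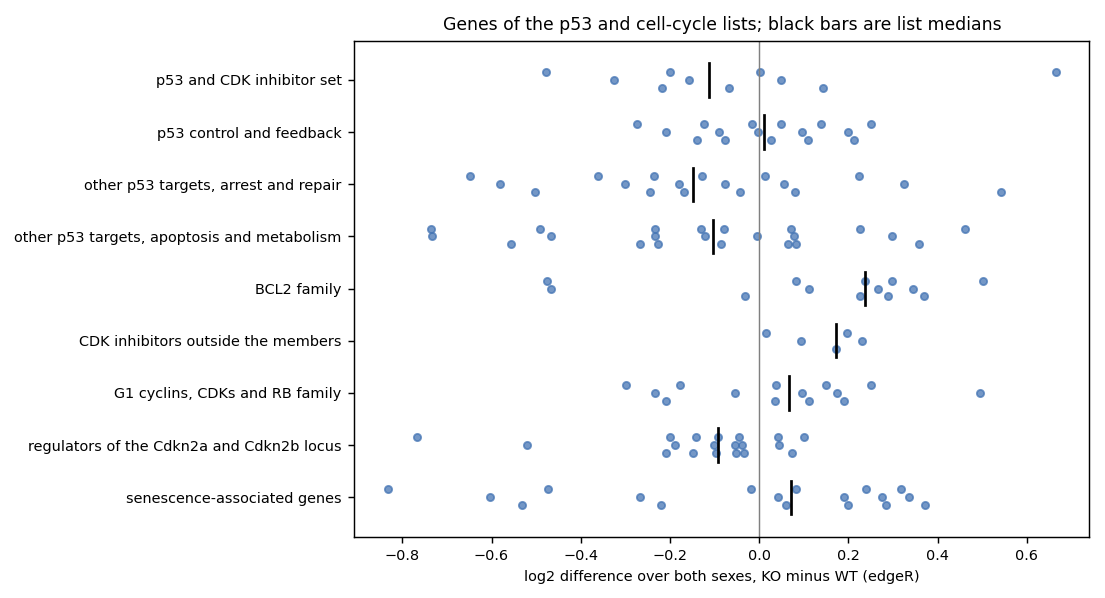
Log2 difference over both sexes between KO and WT (horizontal axis, edgeR) for every gene past the low-count filter in the 10-gene set and in 8 lists of p53 and cell-cycle genes, with a black bar at each median. Medians run from -0.15 for arrest and repair targets to 0.24 for the BCL2 family, and single genes spread to both sides of 0 in every list except the other CDK inhibitors.

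The 3 members that varied most over the 11 libraries were Cdkn2a, Sesn1 and Cdkn2b, with SDs of 0.54, 0.43 and 0.40 in log2 CPM. The genes nearest to each in pattern were found by the root mean square distance of centred log2 CPM over the 11 libraries. Sesn1 had the closest neighbours, Hlx at 0.0900 and Ebi3 at 0.0952, followed by Hist2h2be, Gm16712 and Hacd4 up to 0.113. For Cdkn2b the nearest were Ogdhl at 0.167 and Apbb1 at 0.168, and for Cdkn2a they were Sulf2 at 0.253 and Adcy2 at 0.272.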

How the data were processed

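The authors deposited raw whole-number counts per gene and repeat subfamily for 11 libraries. The submitters' processing notes name Trim Galore, STAR and the build GRCm39. The counting program, strand setting and annotation are not given in the sources used here. Of 56980 Ensembl IDs 52073 were named through GENCODE vM21 (GRCm38), and 1243 entries were repeats.

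Counts were tested with edgeR 4.0.16 in R 4.3.3 (quasi-likelihood F-test): low-count filter (filterByExpr, minimum count 10), then TMM factors (0.951 to 1.04), with Benjamini-Hochberg adjustment over all entries and a threshold of 0.05. A model of sex and genotype (8 residual degrees of freedom) gave the comparison over both sexes and that of males and females. The other comparisons used the 4 group means (7 residual degrees of freedom). The factors were at first computed before the filter. The order was then changed to match an earlier treatment of these data, after both values of Sesn1 in males were known. CPM are counts scaled to an equal library size. Alternatives included DESeq2 1.42.0 and limma-voom (limma 3.58.1) with quality weights.

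The members and lists were chosen with earlier results of these data known. Named genes are the 10 members, Cgas, 9 genes fixed by name, and from each list the 3 with the smallest p over both sexes and the 2 by sex, some of which are not reported here. Cell type markers are given by their summed CPM. Libraries of 1 group differed beyond sampling noise (chi-square per degree of freedom 12.0 to 144). On simulated counts for the comparison over both sexes (21964 genes fitted), 90% of 2-fold and 100% of 4-fold changes were called. These counts held no sex effect and no differences shared by the genes of a library, and no change under 2-fold was simulated. The shares therefore do not apply to the smaller differences of the 10 genes.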

Additional observations from a re-analysis of the deposited data

Results flagged for a closer look

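Among the 10 genes and Cgas, 1 library lay apart from the rest of its group by Dixon's test at the 95% level, with 22 groups tested. It was WT female 2, whose Bbc3 level of 22.9 CPM was the highest of the 5 WT libraries, with a gap to the next library of 0.777 of the group's range. The other WT libraries were between 14.9 and 16.7 CPM. Chance alone flags about 1 in 20 groups.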

How the results depend on the processing

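The number of entries called moved with the tool far more than the differences did. Over both sexes edgeR called 1 entry, DESeq2 546, limma-voom 3259 and edgeR without the low-count filter 3. In males it called 459, DESeq2 2129, limma-voom 4584, size factors of DESeq2 in edgeR 284, no filter 1079, and TMM before the filter, an alternative added after seeing the data, 280. In females DESeq2 called 6 and limma-voom 0. For the interaction DESeq2 called 227 and no filter 2. Between the sexes DESeq2 called 2845, limma-voom 5971 and Ensembl genes alone 602, beside 956.

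Of the 10 genes, 2 were called by DESeq2 and 3 by limma-voom over both sexes, beside 546 and 3259 of 22298 entries. In males 2 were called by DESeq2 (2129 of 22960 entries), 3 by limma-voom (4584 of 22960) and 2 without the filter (1079 of 38314). None was called in males with size factors of DESeq2, with Ensembl genes alone (Sesn1 edgeR adjusted p = 0.0516) or with TMM before the filter. Between the sexes 2 were called by DESeq2 and 3 by limma-voom, beside 2845 and 5971 of 22298 entries.

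Several list genes not past the threshold with edgeR were called by both other tools. Among them were Ddb2 and Bcl2l1 over both sexes and Id1, Ets1 and Btg2 in males. Their adjusted p was 0.0425, 0.0389, 0.00167, 0.0118 and 0.0101 with DESeq2 and 0.0211, 0.0291, 0.0147, 0.00881 and 0.0186 with limma-voom. Plk3, Chek2, Zfp365, Bcl2a1b and Rbl2 in males were further such genes. Their adjusted p was 0.0264, 0.0491, 0.00418, 0.0126 and 0.0240 with DESeq2 and 0.0321, 0.0391, 0.00832, 0.0180 and 0.0169 with limma-voom.

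Leaving out 1 library at a time gave 1 to 1678 calls over both sexes, 0 to 2065 in males, 0 to 3709 in females, 0 to 2435 for the interaction and 104 to 3340 between the sexes. The counts among the 10 genes were then 0 to 4, 0 to 2, 0 to 3, 0 to 2 and 0 to 1. The largest counts of entries all came without WT female 1.

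The replicate numbers are shared by the groups, and the labels name no littermate relation. Deviations of KO and WT libraries with the same number correlated at -0.145 to 0.0731 (5 pairs), beside -0.238 to 0.192 for other pairs (10). With 2 WT females, their deviations are mirror images, so the 2 values of each KO female differ only in sign. So few pairs cannot show whether the numbers pair the samples. With the replicate block 0 entries were called over both sexes, 0 in males, 0 in females and 198 between the sexes, and 0 of the 10 genes in males and between the sexes. Under it Sesn1 in males was at 0.88 (edgeR adjusted p = 0.136), Bax between the sexes at 0.43 (edgeR adjusted p = 0.0578) and Cgas over both sexes at -1.96 (edgeR adjusted p = 0.0654).

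Signs turned where differences were small. With limma-voom Trp53 between the sexes was at -0.022, Cdkn2a and Cdkn2b in males at 0.031 and -0.053, and over both sexes Bbc3 was at 0.0080, Bax at -0.046 and Mki67 at -0.081. With Ensembl genes alone Cdkn2b in males was at -0.015, Bbc3 between the sexes at -0.011, and Bax and Gadd45a over both sexes at -0.024 and -0.014. Bax over both sexes was at -0.0101 with DESeq2 and -0.0094 with its size factors in edgeR, and without the sex term Bax was at -0.055 and Mki67 at -0.082. Lmnb1 over both sexes was at 0.038 with the block.

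Without 1 library at a time, signs turned over both sexes for Trp53 (-0.28 to 0.033), Cdkn2a (-0.0095 to 0.37), Cdkn2b (-0.11 to 0.25), Bax (-0.054 to 0.037), Gadd45a (-0.16 to 0.21), Mki67 (-0.12 to 0.24) and Lmnb1 (-0.28 to 0.15). In males they turned for Cdkn2a (-0.44 to 0.25) and Cdkn2b (-0.27 to 0.41). In females they turned for Trp53 (-0.17 to 0.82), Mdm2 (-0.30 to 0.014), Cdkn2b (-0.13 to 0.38), Ccng1 (-0.34 to 0.10), Mdm4 (-0.58 to 0.058), Trp53inp1 (-0.81 to 0.11), Abhd4 (-0.67 to 0.0123), Cdkn1c (-1.59 to 0.20), Cdkn3 (-0.082 to 0.52), Gdf15 (-2.56 to 0.0123) and Mtap (-0.051 to 0.44). For the interaction they turned for Mdm2 (-0.30 to 0.042), Cdkn1a (-0.19 to 0.55), Cdkn2b (-0.39 to 0.32) and Ccng1 (-0.36 to 0.11), and between the sexes for Trp53 (-0.033 to 0.27), Cdkn1a (-0.024 to 0.22), Sesn1 (-0.028 to 0.20) and Bbc3 (-0.035 to 0.18). Sesn1 stayed above 0 and Aen below 0 under every alternative run over both sexes, in males and in females. The cause of these changes was not tested. The lowest level among the 10 genes was 7.16 CPM, beside a floor of 0.061 to 0.112 CPM; the part of depth was not tested.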
